A study of Bos indicus with 8 samples.

Results

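Keratins 7, 8, 18 and 19 are the simple epithelial keratins, and their 4 genes (KRT7, KRT8, KRT18 and KRT19) were followed in vitrified and control blastocysts of Bos indicus. They were chosen by symbol: every array probe annotated with one of these names was taken, which gave 4 probes, 1 per gene, among 43794 gene probes that carry 15229 distinct symbols. Grade I embryos from in vitro fertilization, 144 to 156 h old, were shared out between control and vitrified groups. The vitrified group was equilibrated in dilute ethylene glycol with dimethylsulfoxide, moved to 15% of each with 0.5 M sucrose, and cooled on the Cryotop, a thin strip that holds embryos in a very small volume. These embryos stayed in liquid nitrogen for at least 30 min and were warmed through sucrose, and both groups were then cultured for 4 h. Controls were held at 37 °C in handling medium while the others were treated, so handling outside the incubator was common to both groups. The embryos taken for RNA looked normal at the end of culture per the labels, so those that had failed to recover were not sampled. Each pool held 10 whole embryos, and its RNA was amplified before labelling.

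Keratins are the intermediate filament proteins of epithelia. A filament is built from heterodimers of 1 type I and 1 type II keratin: KRT18 and KRT19 are type I, KRT7 and KRT8 are type II, and KRT8 with KRT18 is the usual pair of simple epithelia. In the blastocyst the trophectoderm, the outer epithelium that gives rise to the placenta, forms such filaments, which are anchored at desmosomes, and these keratins are used as its markers. The extraembryonic endoderm and the cumulus and granulosa cells of the follicle can also make some of them. By RefSeq's genes for NIAB-ARS_B.indTharparkar_mat_pri_1.0, KRT18 and KRT8 are neighbouring protein-coding genes on chromosome 5, with the noncoding gene LOC109559056 between them. KRT19 is on chromosome 19 beside KRT9, and KRT7 was not matched in that table.

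Each of 8 two-colour arrays, on 2 slides, carried 1 vitrified and 1 control pool, with the vitrified pool in Cy5 (red) on areas 1 and 3 and in Cy3 (green) on areas 2 and 4. Neighbouring areas (1 with 2, 3 with 4) have opposite dye orientation and were treated as 4 dye-swap pairs. The values are log2 ratios of vitrified over control, so that 1 is a doubling, with the SD over the 4 pairs. The median gene probe had an intensity of 106 to 153 in Cy5, and 149 to 243 in Cy3. On 7 arrays 72.3% to 79.2% of gene probes, averaged over the channels, were above background, against 28.0% on area 1 of the second slide (76.3% with a limit set from medians). KRT8, KRT18 and KRT19 were above background in both channels of all 8 arrays. KRT7 was above background on 7 of them, all but area 1 of the second slide.

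The comparison asks whether transcripts of these filament proteins differ 4 h after warming. All 4 had a mean ratio above 0: 0.57 for KRT18, 0.54 for KRT19, 0.45 for KRT8 and 0.12 for KRT7. With limma over the 4 pairs, 0 of the 4 passed an adjusted p of 0.05, and 0% of the 34912 tested probes did, so none is called changed. The median of the members was 0.50, beside 0.00 over all tested probes, of which 52.1% were above 0. At least 3 of 4 pairs were above 0 for each member, and for 34.1% of tested probes. A mean of at least 0.5 was reached by KRT18 and KRT19 and by 0.286% of tested probes, in the direction of higher in vitrified embryos. That limit was not planned, KRT8 fell short of it, and the share counts dim and bright probes alike. It is no test of these genes. The pools differed widely: the ratio of KRT18 ran from a 2.64-fold excess in one pair to 0.838-fold in another. In bulk RNA from whole embryos, a change in the number of trophectoderm cells and a change in RNA per cell cannot be told apart.

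KRT18, the type I partner of KRT8, was high in some pairs and not in others. In the pairs on areas 3 and 4 its ratio was 1.11 (first slide) and 1.40 (second slide). In the pairs on areas 1 and 2 it was 0.01 and -0.26. Thus the excess stood in 1 pair of each slide, and both arrays of such a pair showed it whichever dye the vitrified pool carried. The 4 arrays on areas 3 and 4 lay between 1.02 and 1.53, and the 4 on areas 1 and 2 between -0.40 and 0.11. Over pairs the mean was 0.57 ± 0.81 (SD, n = 4), which is 1.48-fold, with a 95% interval of -0.28 to 1.42 (limma, adjusted p = 0.787). Without the pair on areas 3 and 4 of the second slide the mean was 0.29, without those areas of the first slide it was 0.38, and without the pair on areas 1 and 2 of the second slide it was 0.84.

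**Figure D1:**
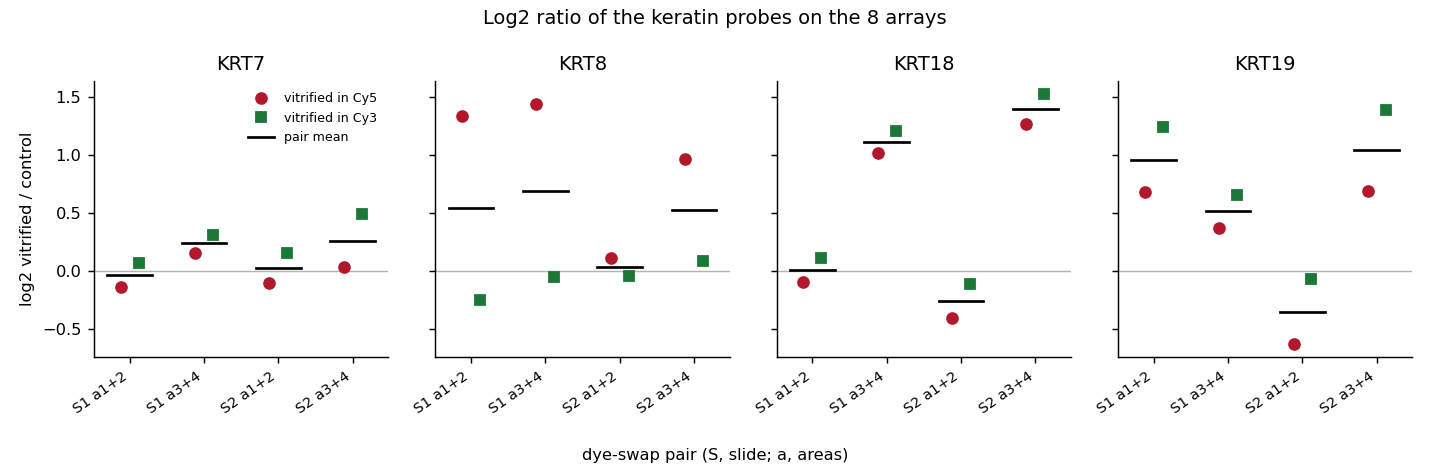
Log2 vitrified over control of the 4 keratin probes on each of the 8 arrays, grouped by dye-swap pair. Circles are arrays with the vitrified pool in Cy5, squares arrays with it in Cy3, and bars are pair means. KRT18 is above 1 on both arrays of areas 3 and 4 on each slide, whereas the circles and squares of KRT8 stand apart in 3 pairs.

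The normalized level of KRT18 showed how each pool contributed. In vitrified pools it was 12.70, 13.10, 12.20 and 13.20 on the log2 intensity scale, the pairs being in the order areas 1 and 2, then areas 3 and 4, of the first and then the second slide. In control pools it was 12.69, 11.99, 12.45 and 11.80. The groups overlapped. In the pairs on areas 3 and 4 the vitrified pools had the highest and the control pools the lowest levels of KRT18 among all pools, so the ratio was made of both sides.

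KRT19, a type I keratin that lacks most of the tail domain of other keratins, was higher in 3 of the 4 pairs. Its ratio was 0.96, 0.52, -0.35 and 1.04 in the same order of pairs. In contrast to KRT18, the pair on areas 1 and 2 of the first slide was among the high ones for KRT19, at 0.96 against 0.01. The mean was 0.54 ± 0.64 (SD, n = 4), or 1.45-fold, with a 95% interval of -0.13 to 1.21 (limma, adjusted p = 0.724). Without areas 1 and 2 of the second slide the mean was 0.84, at a limma adjusted p of 0.418. Vitrified pools had KRT19 levels of 10.60, 10.61, 9.68 and 9.91, and control pools 9.64, 10.09, 10.04 and 8.87, in the same order. The control pool at 8.87 was the lowest of all, and the groups overlapped.

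**Figure D2:**
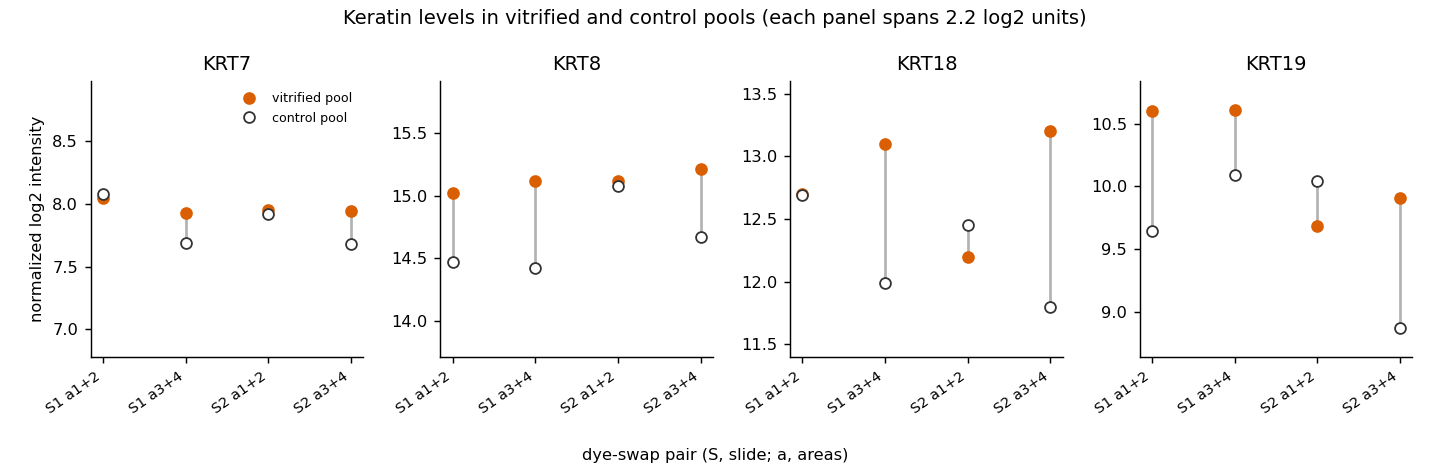
Normalized log2 intensity of each keratin probe in the vitrified (filled) and control (open) pool of each dye-swap pair, averaged over its 2 arrays. Each panel spans the same range on the log2 scale, and levels are to be compared within a panel only. The vitrified pool is above the control pool in all 4 pairs for KRT8 and in 3 for each other gene, with KRT18 at 13.20 against 11.80 in the widest gap.

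KRT8, the type II partner of KRT18, was the only member above 0 in all 4 pairs, which 8.44% of tested probes also were. Its ratio was 0.54, 0.69, 0.04 and 0.53 over the pairs, so 1 pair was near 0 and the others alike. The single arrays did not share this sign, with 5 of 8 above 0. With the vitrified pool in Cy5 they were at 1.34, 1.44, 0.11 and 0.97. With it in Cy3 they were at -0.25, -0.05, -0.04 and 0.09. The mean was 0.45 ± 0.29 (SD, n = 4), or 1.37-fold, with a 95% interval of 0.14 to 0.76. Its unadjusted limma p of 0.0136 was under 0.05, as it was for 7.70% of tested probes (3.29% higher in vitrified embryos), and its adjusted p was 0.518. An exact sign-flip test over 4 pairs, two-sided, gave 0.125 for KRT8, the smallest p that 4 pairs allow. The same test gave 0.250 for KRT19 and 0.375 for KRT18 and KRT7.

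The channels of KRT8 differed. In Cy3 the spot's mean intensity was 26775, 33512, 34470 and 37673 with vitrified pools and 13699, 13141, 33197 and 19894 with control pools. The control pool was thus the dimmer of each pair, by little on areas 1 and 2 of the second slide. In Cy5 it was 35471, 37458, 36796 and 40041 with vitrified pools and 35043, 36241, 39831 and 37130 with control pools. These 8 Cy5 values spanned 1.14-fold and the groups overlapped, whereas the Cy3 values spanned 2.87-fold.

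**Figure D3:**
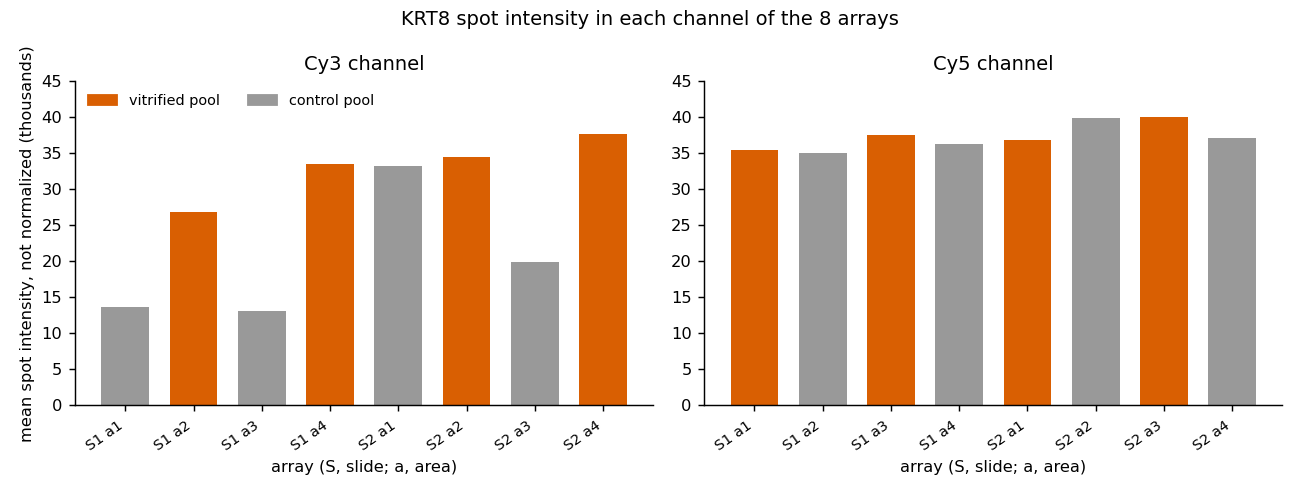
Mean KRT8 spot intensity, before background correction or normalization, on the 8 arrays in the Cy3 (left) and Cy5 (right) channel, coloured by the pool that carried that dye. The Cy5 bars all lie between 35043 and 40041, and the Cy3 bars of control pools fall as low as 13141.

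The files carry no saturation flag. The highest median pixel value in any file, taken as the ceiling, was 65535. The KRT8 spot had median pixels of 43153 to 65450 in Cy5, or 65.8% to 99.9% of it, and 13787 to 61268 in Cy3. Its Cy5 spot means of 35043 to 40041 stood beside highest Cy5 spot means of 40699 to 53218 on the 8 arrays. A total of 147 tested probes had a median Cy5 pixel of at least 60% of that ceiling on all 8 arrays. Their within-pair differences between pools had a median SD of 0.03 in Cy5 and 0.17 in Cy3, beside 0.14 and 0.16 over all tested probes. KRT8, itself among them, had SDs of 0.08 in Cy5 and 0.52 in Cy3. The set was picked by its Cy5 signal alone, which bounds its spread in Cy5 and not in Cy3. Its lower SD in Cy5 is thus partly fixed by that choice and cannot tell what the ceiling did. The part of the ceiling in the ratio of KRT8 was not tested.

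Comparing pools within a dye, a step added after the channels had been seen, gave KRT8 a vitrified minus control difference of 1.16, 1.36, 0.17 and 0.92 in Cy3 over the pairs. The mean was 0.90 ± 0.52 (SD, n = 4), or 1.87-fold, at a limma p of 0.00519 and an adjusted p of 0.501. That Cy3 p was under 0.05 for 7.72% of tested probes. In Cy5 the mean was 0.01 ± 0.08 (adjusted p = 0.990), with 6.67% of tested probes under an unadjusted 0.05. KRT18 gave the same picture in both dyes, with means of 0.56 and 0.55, and its pair values in the 2 channels differed by at most 0.06. KRT19 was at 0.62 in Cy3 and 0.42 in Cy5, and KRT7 at 0.13 and 0.06. None passed in either channel, where 0% of tested probes did.

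The ratios of all 4 members differed with the dye orientation, as those of 54.3% of tested probes did. The ratio with the vitrified pool in Cy5 minus that with it in Cy3 was 1.03 for KRT8 and between -0.53 and -0.23 for the others, and all 4 passed limma's test over pairs. KRT8 was the only member whose ratio was higher with the vitrified pool in Cy5.

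KRT7, a type II keratin of simple and glandular epithelia, had the smallest and least variable ratio. It was -0.03, 0.24, 0.03 and 0.26 over the pairs. The mean was 0.12 ± 0.15 (SD, n = 4), or 1.09-fold, with a 95% interval of -0.05 to 0.30 (limma, adjusted p = 0.765). As for KRT18, both pairs on areas 3 and 4 were above both on areas 1 and 2. The probe was dim, with spot means of 166 to 255 in Cy5 and 239 to 401 in Cy3 over local backgrounds of 21 to 32 and 15 to 19.

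Read by pair, the members stood on the same side of 0 in some pools. On areas 3 and 4 all 4 were above 0 on both slides, with medians of 0.60 on the first and 0.79 on the second. On areas 1 and 2 of the first slide 3 were above 0, with a median of 0.28, and KRT8 and KRT19 carried it. On areas 1 and 2 of the second slide KRT18 and KRT19 were below 0 and the others near it, with a median of -0.11. This pair holds the array with 28.0% of gene probes above background, area 1 (76.3% with a limit set from medians). There KRT18 and KRT19 were at -0.40 and -0.63, and on area 2 at -0.11 and -0.07. The part of that array's quality in the pair's values was not tested. The median of all tested probes lay between 0.00 and 0.01 in every pair. Over all tested probes the SD between pairs had a median of 0.13. KRT18 at 0.81 and KRT19 at 0.64 were more variable than 99.5% and 98.7% of probes, KRT8 more than 81.9% and KRT7 more than 55.8%.

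On the first slide alone the means were 0.56 for KRT18, 0.74 for KRT19, 0.62 for KRT8 and 0.10 for KRT7, and on the second 0.57, 0.34, 0.29 and 0.15. The differences between slides had limma adjusted p of 1.00 for each, with unadjusted p from 0.182 to 0.987. With slide as a block over pairs, the adjusted p was 0.883 for KRT18, 0.817 for KRT19, 0.610 for KRT8 and 0.867 for KRT7.

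The genes with the most similar pattern were taken as those with the highest Pearson r of the ratio over the 8 arrays, among 13135 other named genes. For KRT18 these were YIPF6 (r = 0.99), YWHAQ (0.98), ACTR1A (0.98), DLX4 (0.96) and CCL17 (0.96). For KRT19 they were UNC13D (0.99), SBNO2 (0.98), ST6GALNAC2 (0.98), WIPF1 (0.97) and EDEM1 (0.97). KRT7 was closest to SRP72 (0.98), PRDX5 (0.96), NDUFA10 (0.95), C1H21ORF70 as the annotation lists it (0.94) and IRF7 (0.94). KRT8 was closest to SPHK2, TTC7A, DMRT1 (each 0.97), ZNF283 and NEURL2 (each 0.96), whose mean ratios of 0.00 to 0.18 lay far below its own. The genes listed for the other members also had unlike means. These ran from 0.05 to 0.81 for KRT18, 0.03 to 0.44 for KRT19 and 0.11 to 0.32 for KRT7. The 8 arrays stand in pairs that correlate with each other, and many genes reached a high r: 73 had 0.9 or more with KRT18, 68 with KRT19, 153 with KRT8 and 32 with KRT7. Among the members themselves r over the arrays was 0.74 for KRT7 with KRT18, 0.58 for KRT18 with KRT19, 0.50 for KRT7 with KRT19 and 0.15 for KRT8 with KRT18. That of KRT8 was -0.04 with KRT19 and -0.37 with KRT7. These r hold the dye effect, which for KRT8 has the opposite sign to that of the others. Over the 4 pair means KRT8 had r of 0.70 with KRT18, 0.81 with KRT19 and 0.49 with KRT7. A dye effect cancels there only if it is equal on both arrays of a pair, which was not tested. The difference between vitrified and control pools of KRT8 had an SD over the pairs of 0.52 in Cy3 and 0.08 in Cy5. The spread behind its r thus lay mainly in Cy3. In the same pair means r was 0.95 for KRT7 with KRT18, 0.58 for KRT18 with KRT19 and 0.29 for KRT7 with KRT19. The similar genes listed above were found over the 8 arrays, with the dye effect left in.

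The other keratins of the array, mostly those of stratified epithelia and hair, were nearly level. Of 40 such genes 29 could be tested, 15 above and 14 below 0, with a median of 0.00 and a range from -0.15 to 0.08. None passed, and 0 had an unadjusted p under 0.05. Most of their probes were dim, and only the 5 brightest had a mean log2 intensity of 8.11 or more. For the dimmer ones a ratio near 0 shows little. The 5 brightest were KRT85, a hair keratin, at 0.02 ± 0.17 (SD, n = 4), KRT73 at 0.05 ± 0.12, KRT81 at -0.02 ± 0.16, KRT6A at -0.05 ± 0.07 and KRT78 at 0.01 ± 0.08. KRT5 and KRT14, the pair of basal keratinocytes, were at -0.15 ± 0.18 and 0.08 ± 0.15, and with KRT6A they had the smallest p of the list.

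Of 31 genes for proteins that anchor, modify or bind keratin filaments, 23 could be tested. None passed, 12 were above 0 and 11 below, and their median was 0.00. PPL, periplakin, a linker between filaments and the cell edge, was at 0.59 ± 0.56, with pairs of 0.95, 0.48, -0.16 and 1.07 in the order used for KRT19. SFN, an adaptor protein of epithelia named after seeing its values, was at 0.57 ± 0.83 with pairs of 0.73, 0.46, -0.47 and 1.55. Both were thus lowest in the same pair as KRT19. DSP, desmoplakin, which ties keratin to desmosomes, was at 0.20 ± 0.46, with 0.34 and 0.78 on areas 3 and 4 and -0.06 and -0.27 on areas 1 and 2. PKP4, a plakophilin, was at 0.25 ± 0.19 (limma, adjusted p = 0.582) and PNN, pinin, at 0.11 ± 0.09. JUP, plakoglobin, stood at -0.01 ± 0.03 on a dim probe, and DNAJB6, a co-chaperone that binds KRT18 in mice and humans, at -0.08 ± 0.14. PLEC, plectin, had no named probe.

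The other intermediate filament genes had 13 of 16 members tested, 4 above and 9 below 0, with a median of -0.03, and none passed. VIM, vimentin, the filament protein of mesenchyme, was at -0.05 ± 0.80 with pairs of 1.06, -0.38, -0.07 and -0.82, so its pools varied as much as those of KRT18. LMNA, lamin A/C, was at -0.06 ± 0.02 on a dim probe. NEFH was at 0.15 ± 0.16 and INA, alpha-internexin, at -0.28 ± 0.40, with its other probes between -0.05 and -0.02.

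Transcription factors of trophectoderm were all measured, 18 of 18, with 13 above and 5 below 0, a median of 0.05 and none called. ID2 was at 0.24 ± 0.16 (limma, adjusted p = 0.557) and GATA2 at 0.43 ± 0.33 (adjusted p = 0.573). TFAP2A, a factor of the AP-2 family, was at 0.52 ± 0.83, with pairs of 0.79, 0.55, -0.61 and 1.37. Its lowest pair was again areas 1 and 2 of the second slide. CDX2, a regulator of trophectoderm fate, was at 0.10 ± 0.26, GATA3 at 0.05 ± 0.16 and TFAP2C at 0.09 ± 0.18. The probes of CDX2 and GATA3 were dim, at mean log2 intensities of 7.17 and 7.49.

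**Figure D4:**
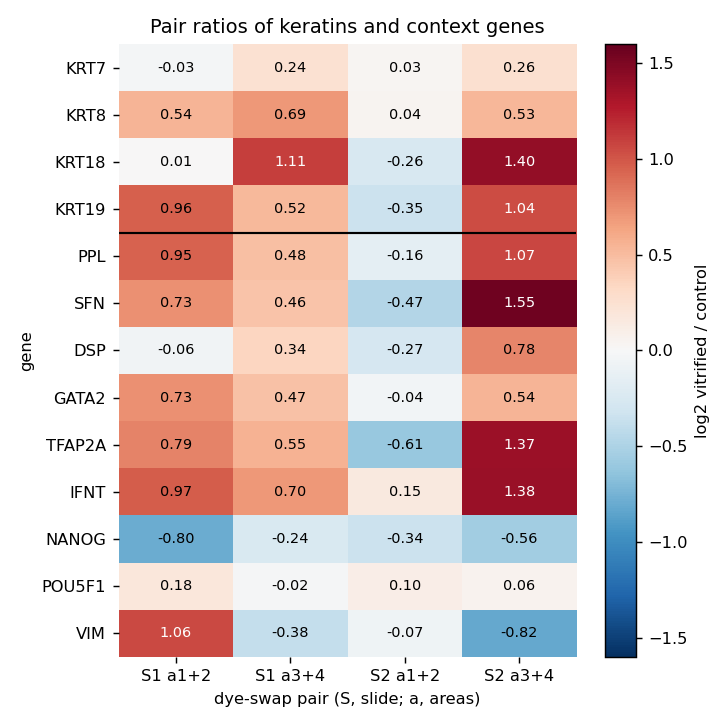
Log2 vitrified over control in each dye-swap pair (columns) for the 4 keratins (above the line) and 9 context genes, coloured from blue (lower in vitrified) to red (higher). On areas 1 and 2 of the second slide KRT18, KRT19, PPL, SFN, DSP and TFAP2A are below 0, and on areas 3 and 4 of that slide each of these is at 0.78 or more. The 9 genes were picked by hand, and listed genes without this pattern are not shown. Among those are ETS2, at 0.73 and -0.27 in these 2 pairs, and TFAP2C, at 0.00 and 0.07.

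Markers of the cell types in a blastocyst were read beside the keratins, and none was called. The 8 trophectoderm markers other than keratins were all above 0, as 52.1% of all tested probes were, with a median of 0.28. Among them PTGS2 was at 0.31 ± 1.30, with pairs from -1.35 to 1.76 and its other probe at -0.07. Some of the 8 (SFN, GATA2, CDX2, GATA3, TFAP2C) stand in the lists above too. The pair medians of the 8 were 0.35, 0.46, -0.05 and 0.51. The pair in which KRT18 and KRT19 were below 0 was thus also the lowest for these. That pair holds the array with 28.0% of gene probes above background (76.3% with a limit set from medians). The summed intensity of the 8 markers was 49953 to 63435 in vitrified and 48207 to 52343 in control pools. TFAP2C and DAB2 weigh most in that sum, at mean log2 intensities of 14.91 and 13.64. TFAP2C was thus about as bright as KRT8, at 14.88, and the part of the ceiling in its values was not tested. IFNT, the interferon of pregnancy recognition, was at 0.80 ± 0.52, and DAB2 at 0.26 ± 0.17, with its other probes between 0.01 and 0.23. Of 8 inner cell mass markers tested 7 were below 0, with a median of -0.17 and pair medians of -0.15, -0.06, 0.05 and -0.49, and a summed intensity of 4383 to 5537 in vitrified and 4922 to 5965 in control pools. NANOG, a pluripotency factor, was at -0.49 ± 0.25, and KLF17 and TDGF1 at -0.40 ± 0.26 and -0.33 ± 0.24. The probes of KLF17 and TDGF1 were dim, at mean log2 intensities of 7.27 and 6.95, and the other TDGF1 probe was at 0.03. Those of SOX2, SALL4 and FGF4, also below 0, were dim too, at 7.09, 7.14 and 7.01. POU5F1, the brightest of these markers at 11.32, was above 0, at 0.08 ± 0.09. The part of cell type composition in the keratin ratios was not tested.

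Primitive endoderm markers had 3 of 7 above 0, a median of -0.10 and a summed intensity of 6411 to 7048 in vitrified and 7032 to 8944 in control pools. PDGFRA was at -0.86 ± 0.43 on its brightest probe, with its other probes between -0.31 and 0.06. LAMA1 was at 0.31 ± 0.22 and COL4A2 at -0.38 ± 0.32. Cumulus and granulosa markers, of which 12 of 14 were tested, had a median of -0.01 and a summed intensity of 3253 to 4689 and 3252 to 4061. INHBB was at -0.09 ± 0.07, COL1A2 at 0.34 ± 0.40 and FSHR at -0.06 ± 0.02. LUM, lumican, picked for its spread once the values were known, stood at -0.60 ± 1.30, with -2.29 on areas 3 and 4 of the second slide. Oocyte markers had a median of 0.04 over 6 genes, with ZP4 at -0.26 ± 0.18, FIGLA at 0.13 ± 0.14 and DAZL at 0.04 ± 0.07. The probes of ZP4, FIGLA and DAZL were dim, at mean log2 intensities of 7.01, 7.53 and 6.89, and so was that of FSHR, at 6.93. A ratio near 0 on such probes shows little. The part of endoderm, follicle and oocyte cells in the keratin ratios was not tested either.

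In the authors' deposited table, read as log2 of vitrified over control, KRT18 and KRT19 averaged over each pair ranked the pairs as above. KRT18 was at 0.06, 0.72, -0.35 and 1.47, and KRT19 at 1.11, 0.42, -0.35 and 1.16. KRT8 was at 0.66, 1.03, -0.17 and 0.92 in the authors' deposited table, so its pair on areas 1 and 2 of the second slide was below 0 there and at 0.04 here. KRT7 was at 0.08, 0.37, 0.05 and 0.21 in the authors' deposited table. Limma over these pair values passed none of the 4, with adjusted p from 0.539 for KRT8 to 0.773 for KRT18.

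Across the settings tried, the ratios of all 4 genes kept a mean above 0 and none was called, also where the 8 arrays were counted singly, which called 1.71% of tested probes. The widest movement was that of KRT8 between the dyes, from 0.01 in Cy5 to 0.90 in Cy3.

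**Figure D5:**
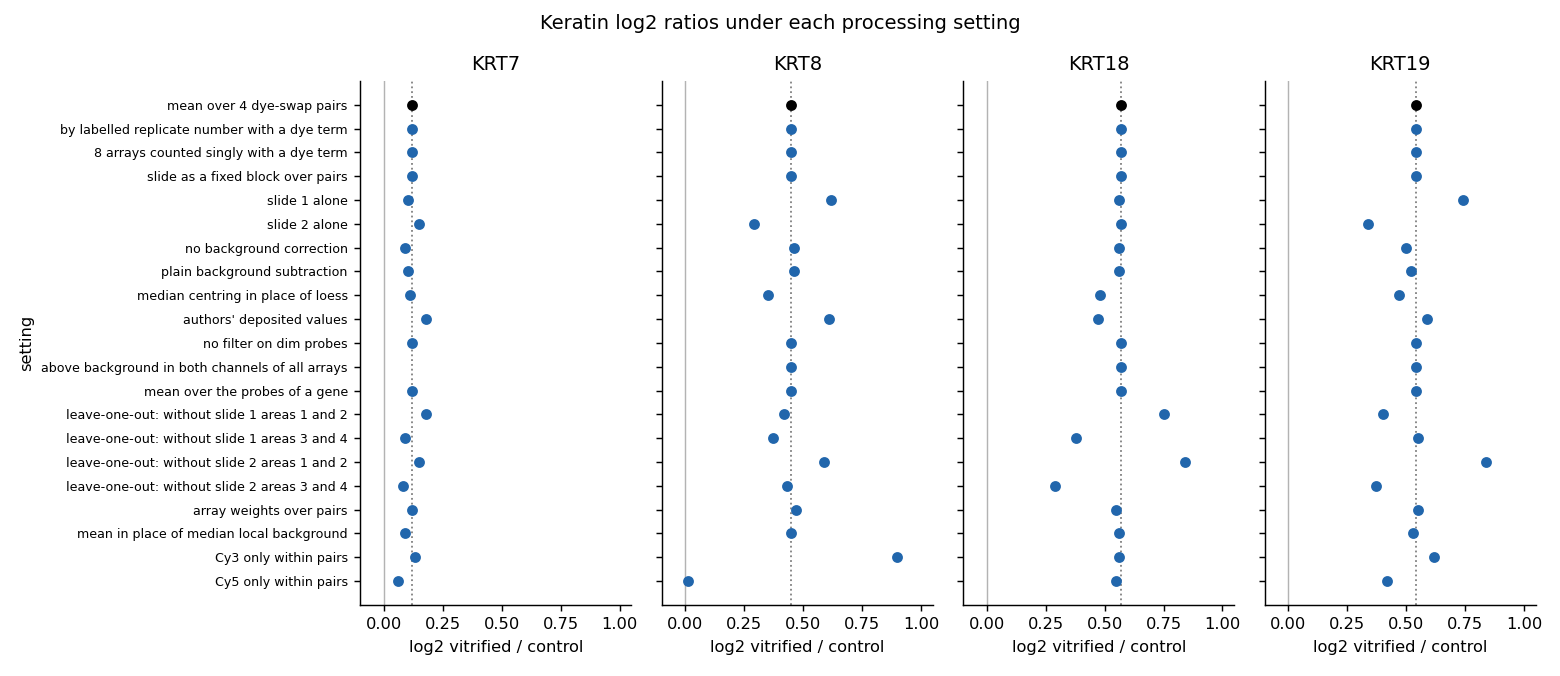
Mean log2 vitrified over control of each keratin under the reported setting (black, dotted line) and each alternative (blue). All points are above 0, KRT18 ranges from 0.29 to 0.84 with the pair left out, and KRT8 from 0.01 in Cy5 only to 0.90 in Cy3 only.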

How the data were processed

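Per the file headers, the scanner files hold spot and local background intensity as pixel means and medians for Cy3 and Cy5, without correction or normalization. The authors' deposited value table holds log2 values whose normalization is not stated. Set against the scanner values over the tested probes, its columns correlated with log2 vitrified over control at r of 0.716 to 0.862, with slopes of 0.937 to 1.29, so that scale and direction were used. In slide and area order the medians of its columns were 0.0031, -0.0012, -0.00032, 0.0035, -0.0098, 0.00064, -0.01 and 0.01, so centring was near 0 by a step not stated.

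Mean spot intensities were corrected with normexp on the median local background (offset 50) and normalized by loess within each array, the 1418 control spots having weight 0 (limma 3.58.1, R 4.3.3). Levels per channel were scaled further with Aquantile. Above background means a log2 signal over the mean plus 2 SD of 153 negative control spots, and a probe was tested when this held on at least 4 of 8 arrays in the vitrified or the control channel. This left 34912 probes and 13136 named genes. The annotation gave 1 symbol to 21790 probes, several to 0 and none to 22004, and 12516 of 15229 symbols were in the RefSeq table. Where a context gene had several probes, the brightest tested one was used.

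Each neighbouring pair was averaged after turning the sign, and lmFit and eBayes tested the 4 pair means against 0 over all probes, with Benjamini-Hochberg adjustment. With the mean of each dye orientation removed, neighbouring areas correlated at r of 0.72 to 0.80 across probes, and other arrays of opposite orientation at -0.51 to -0.10, a sign that the removal itself favours. The labels number biological replicates otherwise, 1 number standing on 1 array of each slide in 1 orientation; that fit is an alternative. The p-values measure only the spread between these pools, about whose origin nothing more was given. The number of arrays limits the precision.

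The members and lists were chosen with earlier results of these data known. Named from each list were the 3 genes with the smallest p, fixed examples, and for other keratins the 5 brightest. The fit was tested on simulated data. No sequence of these genes was used here.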

Additional observations from a re-analysis of the deposited data

Results flagged for a closer look

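All 4 keratins had ratios that differed between arrays with the vitrified pool in Cy5 and arrays with it in Cy3. The difference was 1.03 for KRT8 (adjusted p = 0.00173, above 0 in 4 of 4 pairs), -0.27 for KRT7 (adjusted p = 0.00796), -0.23 for KRT18 (adjusted p = 0.00782) and -0.53 for KRT19 (adjusted p = 3.5e-04), the last 3 below 0 in 4 of 4 pairs, with limma over pairs. A difference between dye orientations was called for 54.3% of tested probes, so it is common on these arrays. KRT8 had the opposite sign to the other members. Of 20 groups of 4 pair values examined for a value far from the others, 0 held one, where chance gives about 1.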

How the results depend on the processing

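None of the 4 keratins was called and none changed sign under 19 alternatives for KRT7 and 20 for each other gene. Their ranges were 0.06 to 0.18 for KRT7, 0.01 to 0.90 for KRT8, 0.29 to 0.84 for KRT18 and 0.34 to 0.84 for KRT19, and the median of the members ranged from 0.24 to 0.71. KRT7 had no value where only probes measured on every array were kept. The lowest adjusted p were 0.329 for KRT7, 0.151 for KRT8 and 0.328 for KRT18, with the 8 arrays counted singly, and 0.184 for KRT19, by labelled replicate number. Counting the arrays singly called 597 probes against 0 over pairs, and all other alternatives called 0, with 2688 probes at an unadjusted p under 0.05 over pairs and 5174 by replicate number. Without 1 pair, KRT7 ranged from 0.08 to 0.18, KRT8 from 0.37 to 0.59, KRT18 from 0.29 to 0.84 and KRT19 from 0.37 to 0.84, and their median from 0.33 to 0.71. Median centring in place of loess gave 0.35 for KRT8, 0.48 for KRT18 and 0.47 for KRT19, with a shift of 0.00 in the median of all probes. The Cy3-only, Cy5-only and mean-background alternatives were added after the data were seen. The reported values pair neighbouring areas. A block on the labelled replicate numbers could not be fitted, since arrays of opposite dye orientation share none. Signal limits KRT7 at the dim end and KRT8 at the bright end.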
